A study of Arabidopsis thaliana with 29 samples.

Results

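The genes described here are the Aux/IAA, ARF, PIN and LAX families of Arabidopsis thaliana, which carry the transcriptional response to the hormone auxin and its transport between cells. They were taken by name: every entry of the authors' deposited tables with a comma-separated name made of IAA, ARF, PIN or LAX and a number, with or without AT in front. Of 32650 entries, 57 matched, and 2 were left out because their loci encode ADP-ribosylation factors. The remaining 55 entries are 24 Aux/IAA, 21 ARF, 7 PIN and 3 LAX entries, and the rule uses names, not measured values.

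Aux/IAA proteins are repressors that bind ARF transcription factors and recruit TOPLESS-type corepressors. Auxin joins an Aux/IAA protein to a TIR1/AFB receptor, the repressor is degraded, and the ARF is free to act on its targets. Many Aux/IAA genes are themselves targets, so that the pathway holds a negative feedback loop. Some ARF proteins activate transcription and others act mainly as repressors. PIN proteins carry auxin out of the cell or, for the short members, across internal membranes, and LAX proteins are relatives of the influx carrier AUX1.

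RNA of all leaves of 4 to 6 Columbia plants per library was sequenced, and 27 libraries in 10 groups enter 7 comparisons. The lines over-express GLUTAMINE DUMPER (GDU) genes, which encode small membrane proteins of plants. Dex-GDU1 plants (3 libraries at each time) carry GDU1 under the dexamethasone-inducible 6Op-LHGRn system, and 4c-S7 (4 libraries at each time) is their parental line. Both were sprayed with 100 µM dexamethasone and 300 ppm Silwet L-77 at 5 h after dawn, kept under a humidity dome for 7 h and collected 7 or 25 h after the spray. No group of either line without the spray was compared, and the collection at 7 h fell 12 h after the last dawn and that at 25 h fell 6 h after it, so the time after spraying and the time of day cannot be told apart. The mutant over-expressor gdu1-1D (3 libraries) and 4 lines of 2 libraries each, 35S-GDU6, 35S-GDU5, 35S-GDU4 and 35S-GDU2, in which the CaMV 35S promoter drives the gene in most tissues, were compared with Col wild type (2 libraries), all of them untreated. Plants of every group were 23 days old, grown on soil under 16 h light and 8 h dark at 22 °C, and all lines were homozygous; the number of independent transformants behind each line is not given in the labels. The 5 constitutive comparisons share the same Col libraries, so their results are not independent of each other.

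The authors' deposited tables give 1 FPKM value (a level scaled to transcript length and to the fragments sequenced) per gene and group, with Cuffdiff's p and q, so neither the spread between libraries nor the depth is known here. A gene is called where the authors' table marks the test as made and gives a q below 0.05, and "rose" and "fell" are used only of called genes. The labels were checked with the over-expressed genes: GDU1, GDU2, GDU5 and GDU6 were called higher in the lines named for them, whereas GDU4 stood at 8.72 FPKM in Col and 10.9 FPKM in the libraries labelled 35S-GDU4 (q 0.949) in the authors' deposited table. That entry shares its stretch of the genome with 46 others, so those libraries are called "labelled 35S-GDU4" throughout. Mesophyll genes dominated, with LHCB1.1, a light-harvesting protein, at 7052 FPKM in Col, while none of 3 root hair markers exceeded 0.0316 FPKM in any group. In bulk leaf RNA, fewer cells of a type and less RNA per cell cannot be told apart.

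Promoters of 4 Aux/IAA genes on which the results below turn are shown first, because they differ in the element that ARF proteins are known to bind. Each is the 250 bases before the annotated gene start in the TAIR10.1 assembly (RefSeq annotation), on the gene's own strand. IAA6 (chr1:19673653-19673902, minus strand), IAA19 (chr3:5263751-5264000, plus strand), IAA14 (chr4:8350264-8350513, minus strand) and IAA29 (chr4:15583082-15583331, plus strand) are given in lower case. Capitals mark TGTCTC, the classical auxin response element, and CACGTG, the G-box, on either strand.
IAA6: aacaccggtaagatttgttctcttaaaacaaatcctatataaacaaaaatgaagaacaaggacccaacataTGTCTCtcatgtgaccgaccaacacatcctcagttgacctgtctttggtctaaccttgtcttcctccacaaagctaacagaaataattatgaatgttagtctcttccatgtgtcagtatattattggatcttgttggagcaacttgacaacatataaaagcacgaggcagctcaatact
IAA19: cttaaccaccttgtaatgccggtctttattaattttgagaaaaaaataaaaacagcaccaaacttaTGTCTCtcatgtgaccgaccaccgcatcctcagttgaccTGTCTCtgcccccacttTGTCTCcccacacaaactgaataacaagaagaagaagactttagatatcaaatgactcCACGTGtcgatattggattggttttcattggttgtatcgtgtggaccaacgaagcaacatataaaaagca
IAA14: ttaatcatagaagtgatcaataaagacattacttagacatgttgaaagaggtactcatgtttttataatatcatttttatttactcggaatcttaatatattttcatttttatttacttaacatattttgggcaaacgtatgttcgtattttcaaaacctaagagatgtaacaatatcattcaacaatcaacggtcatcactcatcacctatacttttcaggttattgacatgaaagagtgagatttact
IAA29: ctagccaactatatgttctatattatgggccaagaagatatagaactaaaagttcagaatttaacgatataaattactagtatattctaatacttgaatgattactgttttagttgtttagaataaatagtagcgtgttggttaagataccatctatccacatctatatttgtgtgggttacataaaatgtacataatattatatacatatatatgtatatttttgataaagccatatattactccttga
IAA19 held 3 copies of TGTCTC and 1 CACGTG, and IAA6 held 1 copy of TGTCTC. Both carry the same 23 bases around it, taTGTCTCtcatgtgaccgacca, whereas no other pair of the 4 shared a run of more than 8 bases. Neither motif, nor the variant TGTCGG, occurred in this window of IAA14 or IAA29.

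Across the families, TGTCTC was found in 7 of 22 Aux/IAA promoters (31.8%), in 1 of 21 ARF promoters (4.76%) and in 0 of 7 PIN and 0 of 3 LAX promoters, against 10.9% of the 27443 promoters of protein-coding genes. The variant TGTCGG occurred in 3 of 22 Aux/IAA promoters (13.6%) and in 4.16% of all promoters, and CACGTG in 4 of 22 (18.2%) and 6.49%. The loose form TGTCNN, which contains both of the TGTC motifs above, was in 18 of 22 Aux/IAA promoters (81.8%) and in 74.5% of all promoters, so it scarcely separates genes. Both strands were searched, a match is a description of letters only, and no match was tested against the expression values.

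Of the 55 entries, 39 were tested in all 7 comparisons: 17 Aux/IAA, 13 ARF, 6 PIN and 3 LAX. The other 16 never passed Cuffdiff's filter on low values, and none of them exceeded 0.867 FPKM in any group. They include ARF12 to ARF15 and ARF20 to ARF23, which form a group of close relatives known from seeds, PIN8, known from pollen, and the Aux/IAA genes IAA15, IAA20, IAA30, IAA31, IAA33 and IAA34. An entry named IAA10 on the strand opposite to that gene makes up the 16. Of those 16, 6 were listed at 0 in all 14 columns.

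At 7 h after the spray, 10 of the 39 tested genes (25.6%) were called in Dex-GDU1, against 16% of all 17496 genes tested. All 10 were higher than in 4c-S7, where 8.76% of all tested genes were called higher and 7.19% lower. Cuffdiff gave an unadjusted p under 0.05 to 14 of the 39, and to 4592 of all 17496 genes tested. The median log2 difference of the 39 was 0.14, and that of all tested genes -0.01. At 25 h, 6 genes (15.4%) were called, 4 higher and 2 lower, against 46.1% of all tested genes. At 7 h the count depends on the threshold: 3 of the 39 had a q below 0.01 (the share over all genes was not computed). With p recomputed from the deposited test statistics 0 were called, against 1.25% of all genes. Of the cell type markers, LHCB1.1 (551 to 823 FPKM) and LHCB2.1 (436 to 615 FPKM) of the mesophyll and SUC2 of the phloem (155 to 176 FPKM) rose at 7 h too, and HIS4 of dividing cells fell from 82.1 to 66.9 FPKM. The 5 listed mesophyll markers together stood at 7873 FPKM in 4c-S7 and 7790 FPKM in Dex-GDU1 at 7 h, so their sum was not higher. At 25 h SUC2 and the flower marker AG rose, and SWEET11, SWEET12, MYB60, KAT1, ATML1 and HIS4 fell. The part of these markers in the shares was not tested.

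Among the constitutive lines the share of called family genes was near the background or below it. In gdu1-1D 5 rose and 9 fell (35.9%, against 44.5% of all genes tested), in 35S-GDU2 3 rose and 3 fell (15.4%, against 24.7%), and in the libraries labelled 35S-GDU4 3 rose and 2 fell (12.8%, against 15.4%, with 9.65% of all genes higher and 5.71% lower). In 35S-GDU5 7 rose and 14 fell (53.8%, against 55%), with a median log2 difference of -0.16 against 0.01 for all genes. In 35S-GDU6 11 rose and 8 fell (48.7%, against 48.8%), with a median of 0.07 against 0.00. A share at the level of all genes is no result about these families, and what follows is therefore a description of single genes.

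**Figure D1:**
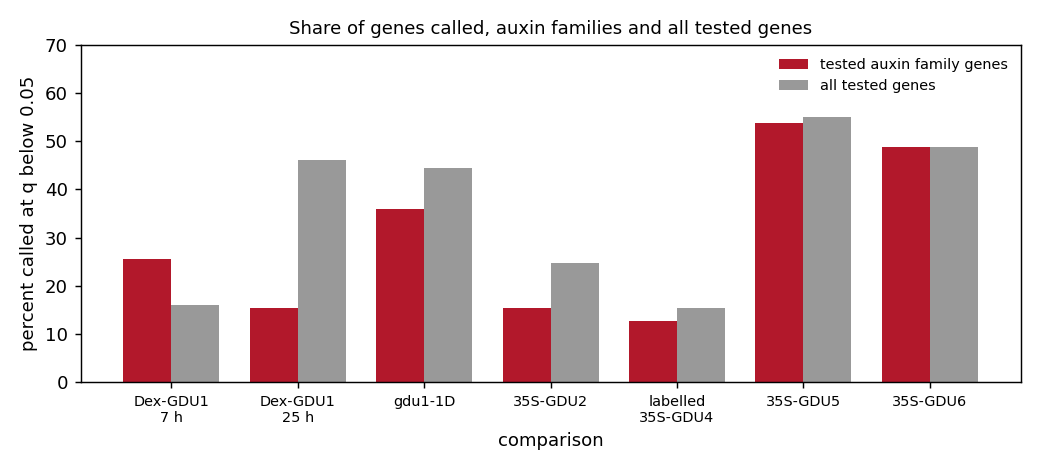
Bars give the percent of tested genes called at q below 0.05 in each of the 7 comparisons, for the 39 tested auxin family genes (red) and for all tested genes (grey). The red bar is the higher of the pair at 7 h after the spray (25.6% and 16%), and lower or about level in the other comparisons.

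Over the 7 comparisons 30 of the 39 genes were called at least once, 11 only higher, 12 only lower and 7 in both directions. The matching shares over all tested genes were not computed, so these counts are no result about the families. The 30 genes hold 81 calls, of which 10 reached a 2-fold difference. Of the 81, 47 lie at 5e-05, the smallest p that the tables hold. The authors' p-values are smaller than their own test statistics give on a normal scale. Standard errors (SE) below come from the deposited p, so "at most" is a bound on that p only. Errors from the test statistics can be larger. With p recomputed from those statistics over all genes, 29 of the 81 calls remained, among 19 genes, and 0 remained in Dex-GDU1 at 7 h and in 35S-GDU2. Each family call described below that held on that stricter reading is therefore said to have held, and the other family calls did not hold. Single calls of genes outside the 4 families were not checked on it.

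**Figure D2:**
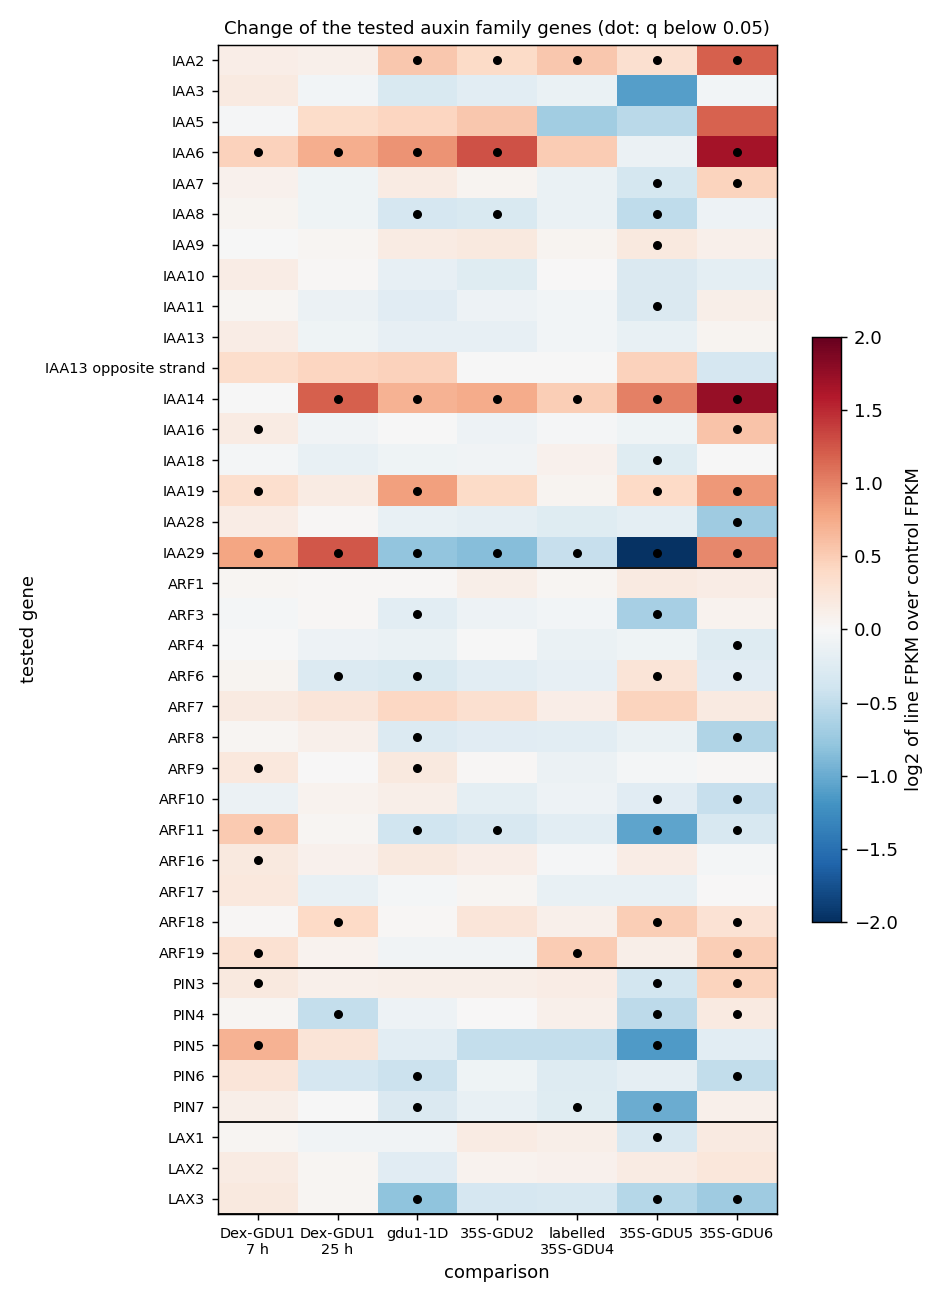
Each cell gives the log2 of line FPKM over control FPKM for 1 tested gene (vertical axis, families separated by lines, 1 gene not drawn) in 1 comparison (horizontal axis), with red for higher and blue for lower, and a dot marks q below 0.05. IAA14 and IAA29 each carry dots in at least 6 comparisons, IAA29 in both colours.

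Aux/IAA genes differed widely in level. In Col wild type, in the table shared with gdu1-1D, IAA8 stood highest at 148 FPKM and held 24.9% of the family's summed FPKM, followed by IAA16 (95.0 FPKM), IAA9 (87.8 FPKM), IAA7 (87.5 FPKM) and IAA2 (51.0 FPKM). These 5 genes also led the family in 4c-S7, where IAA9 was first at 7 h (144 FPKM) and IAA8 at 25 h (107 FPKM). Without values per library, neighbours in that order cannot be separated.

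IAA14, the repressor known as SOLITARY-ROOT for the loss of lateral roots in its stabilised mutant, was called higher in 6 of the 7 comparisons. In the authors' deposited tables it went from 7.24 to 11.7 FPKM in gdu1-1D, from 7.01 to 11.8 FPKM in 35S-GDU2 and from 6.78 to 9.57 FPKM in the libraries labelled 35S-GDU4. It reached 15.1 FPKM in 35S-GDU5 and 22.7 FPKM in 35S-GDU6, against 7.51 and 6.77 FPKM in Col, which are rises of 2.01-fold and 3.35-fold (log2 1.01, SE at most 0.25, and 1.74, SE at most 0.43). In Dex-GDU1 it was level with 4c-S7 at 7 h (1.56 and 1.57 FPKM) and rose 2.29-fold at 25 h, from 3.39 to 7.76 FPKM (log2 1.20, SE at most 0.29). So every line stood above its control except at 7 h, and the control levels themselves ran from 1.57 to 7.51 FPKM. The calls in Dex-GDU1 at 25 h, gdu1-1D, 35S-GDU5 and 35S-GDU6 also held with p from the test statistic. The IAA14 entry shares its stretch with AT4G14548 on the other strand, whose entry rose at 7 h from 5.79 to 10.2 FPKM and fell in 35S-GDU5 from 3.73 to 1.51 FPKM and in the libraries labelled 35S-GDU4 from 3.36 to 1.75 FPKM; strand was not given for the counting, and its part in the IAA14 values was not tested.

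IAA29, a family member known as a target of phytochrome-interacting factors in shade, was the only one of the 39 genes called in all 7 comparisons, and its direction split. Dex-GDU1 stood above 4c-S7 at 7 h, with 4.27 against 2.47 FPKM, and at 25 h, with 3.15 against 1.33 FPKM (a rise of 2.37-fold, log2 1.24, SE at most 0.31), in the authors' deposited tables. It fell in gdu1-1D (7.97 to 4.63 FPKM), 35S-GDU2 (7.72 to 4.29 FPKM) and the libraries labelled 35S-GDU4 (7.46 to 5.43 FPKM). The fall was deepest in 35S-GDU5, from 8.26 to 2.09 FPKM or 3.96-fold (log2 -1.98, SE at most 0.49), while 35S-GDU6 went the other way, from 7.45 to 14.5 FPKM (log2 0.96, SE at most 0.24). Its calls in 35S-GDU5 and 35S-GDU6 were the ones that held with p from the test statistic. Those 2 lines thus lie on opposite sides of the Col libraries that both were compared with.

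IAA2, an early auxin-induced gene, was called higher in all 5 constitutive comparisons. In the authors' deposited tables it reached 73.8 FPKM in gdu1-1D, 64.7 FPKM in 35S-GDU2, 69.4 FPKM in the libraries labelled 35S-GDU4 and 65.7 FPKM in 35S-GDU5, with Col between 47.7 and 52.8 FPKM. In 35S-GDU6 it reached 109 FPKM, 2.28-fold above Col (log2 1.19, SE at most 0.29). In Dex-GDU1 it was not called, at 111 against 101 FPKM at 7 h and 79.8 against 74.1 FPKM at 25 h. The rises in gdu1-1D, the libraries labelled 35S-GDU4 and 35S-GDU6 also held with p from the test statistic.

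IAA6 and IAA19, whose promoters share the 23 bases printed above and which are close relatives linked to elongation growth, were mostly called higher. IAA6 rose in Dex-GDU1 at 7 h (3.56 to 4.93 FPKM) and at 25 h (1.91 to 3.2 FPKM), in gdu1-1D (1.91 to 3.57 FPKM) and in 35S-GDU2 (1.85 to 4.48 FPKM, 2.42-fold) in the authors' deposited tables. Its largest rise was in 35S-GDU6, from 1.79 to 5.69 FPKM or 3.18-fold (log2 1.67, SE at most 0.41), the one call of IAA6 that held with p from the test statistic. No call was made in 35S-GDU5 (1.98 and 1.83 FPKM) or in the libraries labelled 35S-GDU4 (1.79 and 2.56 FPKM). IAA19 rose from 8.27 to 10.5 FPKM in Dex-GDU1 at 7 h, from 4.78 to 8.42 FPKM in gdu1-1D (log2 0.82, SE at most 0.20), from 4.95 to 6.51 FPKM in 35S-GDU5 and from 4.47 to 8.17 FPKM in 35S-GDU6 (log2 0.87, SE at most 0.21). In the other comparisons IAA19 was not called, with 3.96 and 4.43 FPKM at 25 h, 4.63 and 6.06 FPKM in 35S-GDU2 and 4.47 and 4.62 FPKM in the libraries labelled 35S-GDU4. Its calls in gdu1-1D and 35S-GDU6 held with p from the test statistic. Both genes are below 11 FPKM in every group, so that neither contributes much to the family's total.

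**Figure D3:**
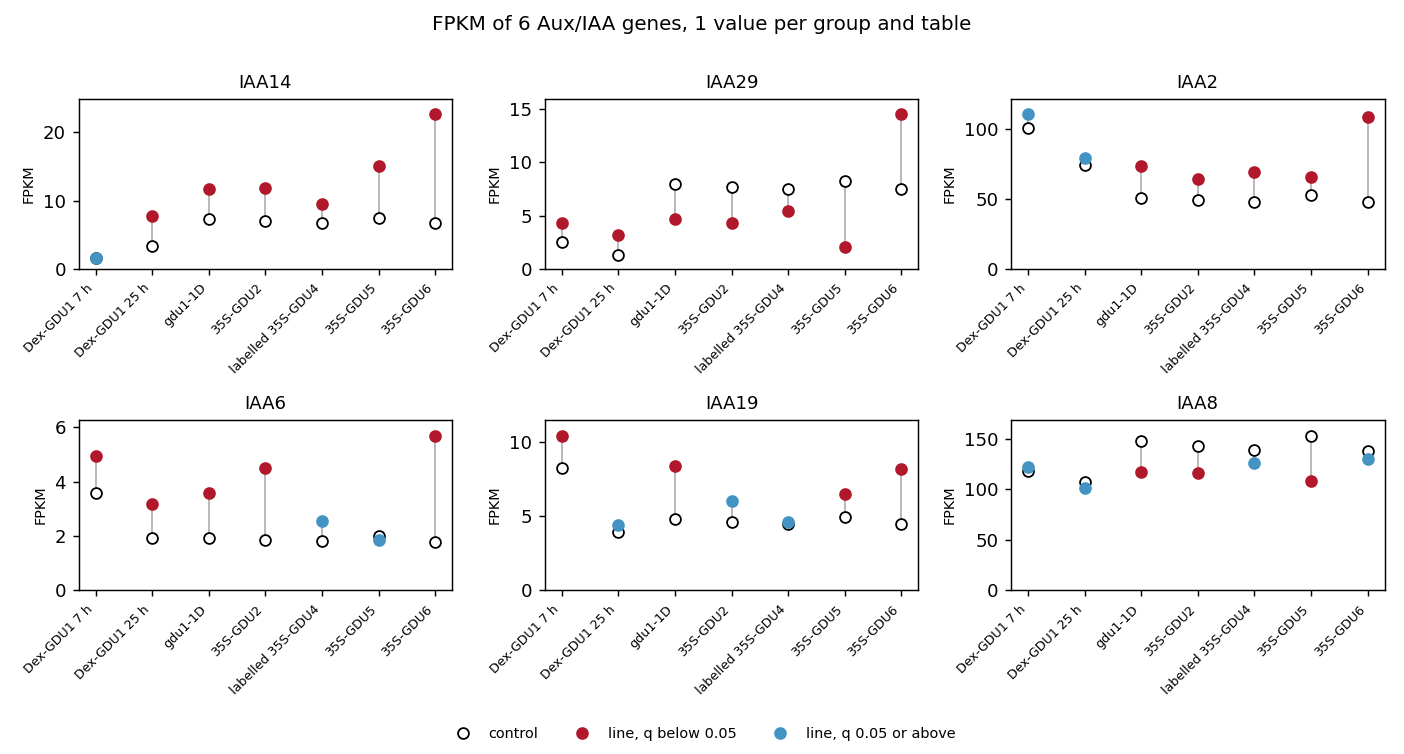
FPKM (vertical axis, from 0, a scale per panel) of 6 Aux/IAA genes in the 7 comparisons (horizontal axis); open circles are the control group, red circles a line called at q below 0.05 and blue circles a line not called, each 1 deposited group value with no error given. IAA14 stands above its control in all but the first comparison, and IAA29 stands below Col in all constitutive lines but 35S-GDU6 (14.5 against 7.45 FPKM).

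IAA8, the most abundant of the family in Col, fell in gdu1-1D (148 to 117 FPKM), 35S-GDU2 (143 to 116 FPKM) and 35S-GDU5 (153 to 108 FPKM, log2 -0.50, SE at most 0.12) in the authors' deposited tables, and the last of these held with p from the test statistic. It was not called in Dex-GDU1 (118 and 122 FPKM at 7 h, 107 and 101 FPKM at 25 h), in the libraries labelled 35S-GDU4 (138 and 126 FPKM) or in 35S-GDU6 (138 and 130 FPKM). In 35S-GDU6 IAA16 rose from 88.8 to 132 FPKM (log2 0.58, SE at most 0.14) and IAA7, known as AXR2, rose from 81.8 to 112 FPKM, whereas IAA28, whose stabilised mutant is known to form few lateral roots, fell from 10.2 to 6.28 FPKM (log2 -0.70, SE at most 0.17). All of these 35S-GDU6 calls held with p from the test statistic. IAA28 was not called elsewhere, with 14.9 and 16.5 FPKM at 7 h, 9.34 and 9.47 FPKM at 25 h and line values of 8.68 to 9.90 FPKM against 10.2 to 11.3 FPKM in the other Col tables. IAA7 fell in 35S-GDU5, from 90.7 to 70.9 FPKM. The remaining Aux/IAA calls were IAA16 at 7 h (higher, log2 0.16) and, in 35S-GDU5, IAA9 (higher, 0.20), IAA11 (lower, -0.28) and IAA18 (lower, -0.24).

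Tested Aux/IAA entries that were never called were IAA3, IAA5, IAA10 and both entries named IAA13. IAA3, known as SHY2, shares its stretch with 48 other entries and IAA5 with 51, and their differences carry wide errors: IAA3 stood at 32.9 FPKM in Col and 15.3 FPKM in 35S-GDU5 (log2 -1.11, SE 0.78, q 0.231). IAA5 stood at 2.18 FPKM in Col and 4.94 FPKM in 35S-GDU6 (log2 1.18, SE 4.27, q 0.851). Over all genes, entries alone on their stretch were called in 19.1% to 62.9% of cases, depending on the comparison, and entries that share it with 9 or more others in 0.588% to 7.92%. For IAA3 and IAA5 the lack of a call therefore says little.

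ARF genes were led by ARF3, known as ETTIN, a factor of organ polarity, at 50.8 FPKM in Col in the table shared with gdu1-1D (30.7% of the family's sum). ARF1 (18.7 FPKM), ARF8 (15.8 FPKM), ARF6 (14.2 FPKM) and ARF4 (10.2 FPKM) followed. ARF3 fell in gdu1-1D from 50.8 to 43.8 FPKM and in 35S-GDU5 from 52.7 to 33.3 FPKM (log2 -0.66, SE at most 0.16), and the second held with p from the test statistic. It was not called elsewhere: at 7 h it stood at 69.9 FPKM in 4c-S7 and 68.2 FPKM in Dex-GDU1, at 25 h at 40.8 and 41.6 FPKM. In the other Col tables ARF3 stood at 49.2 and 45.9 FPKM (35S-GDU2), 47.5 and 45.7 FPKM (labelled 35S-GDU4) and 47.5 and 49.9 FPKM (35S-GDU6). Its entry also covers AT2G33855, so that the value is of both.

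Among the ARF genes known as activators, ARF6 and ARF8, close relatives that act in flowers and in elongation, were called mostly lower. ARF6 fell in Dex-GDU1 at 25 h from 13.3 to 10.9 FPKM (log2 -0.28, SE at most 0.07), in gdu1-1D from 14.2 to 11.5 FPKM and in 35S-GDU6 from 13.3 to 11.4 FPKM. It rose in 35S-GDU5 from 14.8 to 17.7 FPKM. Elsewhere ARF6 was not called: 15.2 and 15.8 FPKM at 7 h, 13.8 and 11.9 FPKM in 35S-GDU2, and 13.3 and 11.9 FPKM in the libraries labelled 35S-GDU4. None of its 4 calls held with p from the test statistic. ARF8 fell in gdu1-1D from 15.8 to 13.1 FPKM and in 35S-GDU6 from 14.8 to 9.74 FPKM (log2 -0.60, SE at most 0.15), and that second call held. In the other comparisons ARF8 was not called: 9.56 and 9.81 FPKM at 7 h, 10.9 and 11.7 FPKM at 25 h, and line values of 12.9 to 15.0 FPKM against 14.8 to 16.4 FPKM in Col.

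ARF19, an activator that acts with ARF7 in lateral root formation, was called higher in 3 comparisons. It rose in Dex-GDU1 at 7 h (2.93 to 3.62 FPKM), in the libraries labelled 35S-GDU4 (4.28 to 6.07 FPKM) and in 35S-GDU6 (4.28 to 6.01 FPKM, log2 0.49, SE at most 0.12), where the call held with p from the test statistic. At 25 h it stood at 3.98 and 4.16 FPKM, in gdu1-1D at 4.57 and 4.34 FPKM, in 35S-GDU2 at 4.43 and 4.24 FPKM and in 35S-GDU5 at 4.74 and 5.16 FPKM, none of them called. The tables name this entry ARF11 together with a neighbour, AT1G19210, and its position is that of ARF19. ARF7 is listed under the name IAA21, shares its stretch with another entry and was never called, with line over control between 1.09-fold and 1.36-fold in the 7 comparisons.

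Among the other ARF genes, ARF11 was called in 5 comparisons and in both directions. It rose in Dex-GDU1 at 7 h from 5.66 to 8.11 FPKM (log2 0.52, SE at most 0.13), and fell in gdu1-1D (6.69 to 5.09 FPKM), 35S-GDU2 (6.48 to 5.18 FPKM) and 35S-GDU6 (6.26 to 4.99 FPKM). Its largest difference was in 35S-GDU5, from 6.94 to 3.35 FPKM, 2.07-fold lower (log2 -1.05, SE at most 0.26), the call that held with p from the test statistic. It was not called at 25 h (3.73 and 3.84 FPKM) or in the libraries labelled 35S-GDU4 (6.27 and 5.44 FPKM). ARF18 moved the other way in 35S-GDU5, from 5.42 to 7.60 FPKM (log2 0.49, SE at most 0.12), and this call held with p from the test statistic. It also rose in Dex-GDU1 at 25 h (3.65 to 4.81 FPKM) and in 35S-GDU6 (4.89 to 5.98 FPKM). ARF18 was not called at 7 h (3.32 and 3.37 FPKM), in gdu1-1D (5.23 and 5.31 FPKM), in 35S-GDU2 (5.07 and 5.98 FPKM) or in the libraries labelled 35S-GDU4 (4.90 and 5.25 FPKM).

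The remaining ARF calls were small. ARF9 rose in Dex-GDU1 at 7 h and in gdu1-1D (log2 0.21 and 0.20), ARF16 rose at 7 h (0.20), ARF10 fell in 35S-GDU5 and 35S-GDU6 (-0.22 and -0.46), and ARF4, which acts with ARF3 in leaf polarity, fell in 35S-GDU6 (-0.25). ARF10 and ARF16 are known targets of the microRNA miR160, as is ARF17, which was never called, nor was ARF1.

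**Figure D4:**
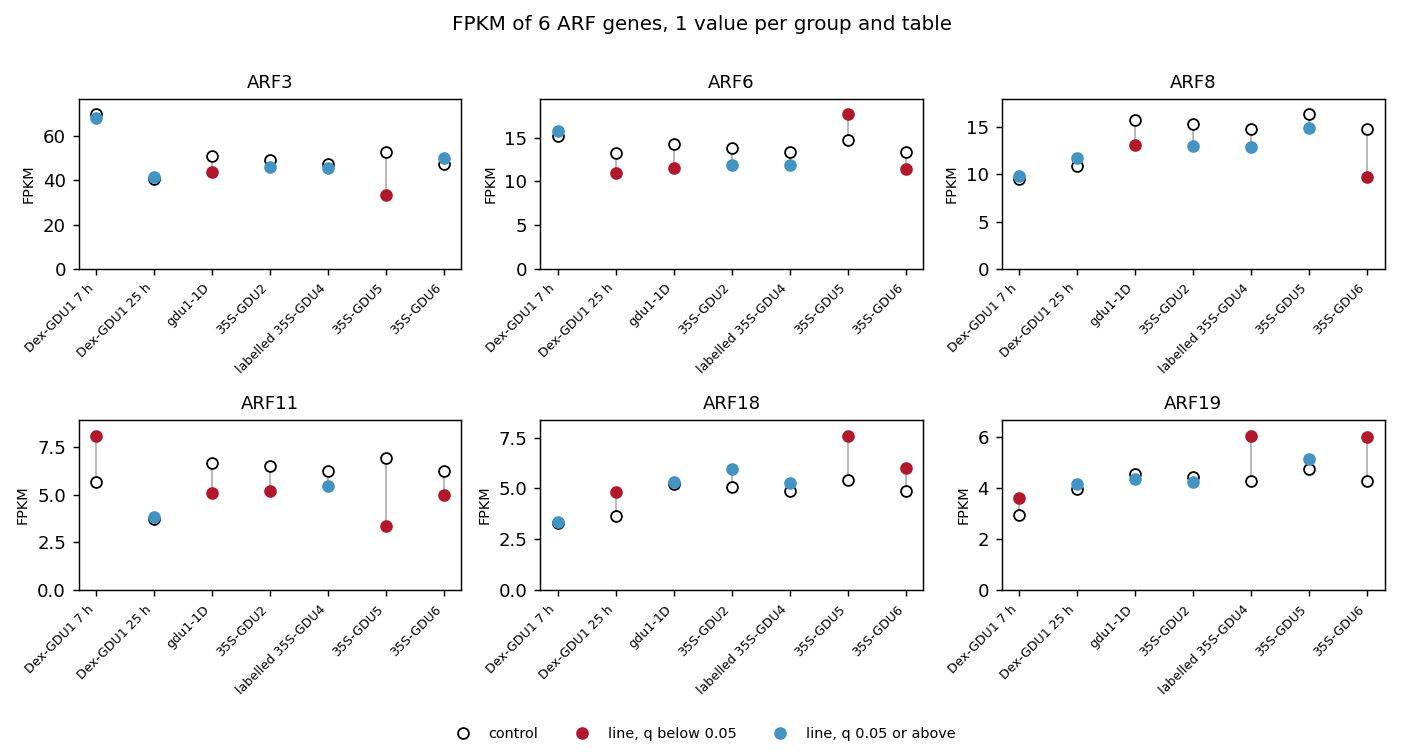
FPKM (vertical axis, from 0, a scale per panel) of 6 ARF genes in the 7 comparisons (horizontal axis); open circles are the control group, red circles a line called at q below 0.05 and blue circles a line not called, each 1 deposited group value with no error given. ARF3 and ARF11 stand lowest against Col in 35S-GDU5 (33.3 against 52.7 FPKM and 3.35 against 6.94 FPKM), where ARF18 stands above Col (7.60 against 5.42 FPKM).

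PIN efflux carriers were led by PIN7, PIN4 and PIN3, which made up most of the family's summed level, with 61.1, 43.8 and 37.8 FPKM in Col in the table shared with gdu1-1D. PIN5 and PIN6 stood at 2.61 and 2.28 FPKM there. In 35S-GDU5 4 of the 6 tested PIN genes fell, against 26.5% of all tested genes that fell and 28.5% that rose. PIN7 fell there from 63.4 to 31.9 FPKM (log2 -0.99, SE at most 0.24), PIN4 from 45.4 to 31.5 FPKM (log2 -0.53, SE at most 0.13) and PIN3 from 39.2 to 30.3 FPKM (log2 -0.37, SE at most 0.09). These 3 calls also held with p from the test statistic, and they are of the family's most abundant genes. PIN5, a short PIN of the endoplasmic reticulum, fell in 35S-GDU5 from 2.70 to 1.23 FPKM (2.19-fold lower), and that call did not hold.

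Other markers moved in 35S-GDU5 as well. KN, the cytokinesis syntaxin KNOLLE of dividing cells, rose from 8.71 to 29.4 FPKM, and the meristem gene STM was listed at 0 in Col and at 4.24 FPKM in the line, while CYCB1;1 and HIS4 of dividing cells and WUS and CLV3 of the meristem were not called. All 3 guard cell markers (FAMA, MYB60 and KAT1) and all 4 tested mesophyll markers fell. The 5 listed mesophyll markers together, the untested one included, stood at 26917 FPKM in Col and 29363 FPKM in the line, so their sum was not lower. Of the 5 vascular markers 3 fell (SUC2, SWEET11 and APL, the last from 18.9 to 8.70 FPKM) and SWEET12 rose from 12.9 to 34.7 FPKM. The epidermal marker TTG2 rose from 0.213 to 1.29 FPKM, and of the flower markers PI rose from 0.231 to 1.03 FPKM and AG fell from 1.34 to 0.16 FPKM. The 3 guard cell markers also fell in 35S-GDU2 and 35S-GDU6. In gdu1-1D all 3 tested mesophyll markers, 2 of 3 guard cell and 2 of 3 dividing cell markers fell, while 2 of 5 vascular markers rose and 1 fell. The sum of the 5 mesophyll markers, untested ones included, was 25965 FPKM in Col and 12942 FPKM in gdu1-1D. It was higher than in Col in 35S-GDU2 (42737 against 25144 FPKM) and 35S-GDU6 (43263 against 24272 FPKM). The part of these markers in the PIN and other family values was not tested.

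In the other lines PIN7 fell in gdu1-1D from 61.1 to 50.1 FPKM and in the libraries labelled 35S-GDU4 from 57.2 to 48.2 FPKM. It was not called in Dex-GDU1 (67.2 and 72.6 FPKM at 7 h, 42.4 and 42.0 FPKM at 25 h), 35S-GDU2 (59.2 and 53.4 FPKM) or 35S-GDU6 (57.1 and 61.2 FPKM). PIN4 fell in Dex-GDU1 at 25 h from 41.6 to 30.0 FPKM (log2 -0.47, SE at most 0.12), a call that held with p from the test statistic, after 58.9 and 60.2 FPKM at 7 h. In 35S-GDU6 PIN3 rose from 35.3 to 48.1 FPKM (log2 0.45, SE at most 0.11; it held) and PIN4 from 41.0 to 46.6 FPKM, opposite to 35S-GDU5. PIN4 was not called in gdu1-1D (43.8 and 40.7 FPKM), 35S-GDU2 (42.5 and 42.5 FPKM) or the libraries labelled 35S-GDU4 (41.0 and 44.1 FPKM).

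At 7 h, PIN3 rose from 27.6 to 31.5 FPKM and PIN5 from 1.58 to 2.56 FPKM (log2 0.69, SE 0.19). PIN3 was not called at 25 h (29.1 and 31.1 FPKM), in gdu1-1D (37.8 and 41.1 FPKM), in 35S-GDU2 (36.6 and 39.7 FPKM) or in the libraries labelled 35S-GDU4 (35.4 and 39.2 FPKM), although each line stood slightly above its control. PIN5 was not called at 25 h (1.41 and 1.69 FPKM) or in the constitutive lines other than 35S-GDU5, which stood at 1.75 to 2.24 FPKM against 2.44 to 2.61 FPKM in Col. PIN6 fell in gdu1-1D from 2.28 to 1.70 FPKM and in 35S-GDU6 from 2.13 to 1.51 FPKM.

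LAX influx carriers had LAX1 as their most abundant member (25.0 FPKM in Col in the table shared with gdu1-1D, 62.7% of the family's sum). LAX3, known for auxin influx ahead of emerging lateral roots, fell in gdu1-1D from 5.19 to 2.98 FPKM (log2 -0.80, SE at most 0.20), in 35S-GDU5 from 5.38 to 3.61 FPKM (log2 -0.58, SE at most 0.14) and in 35S-GDU6 from 4.85 to 2.97 FPKM (log2 -0.71, SE at most 0.17). The calls in gdu1-1D and 35S-GDU6 held with p from the test statistic. In 35S-GDU2 (5.03 and 4.00 FPKM) and the libraries labelled 35S-GDU4 (4.86 and 3.91 FPKM) it stood below Col without a call, and in Dex-GDU1 it was not called (3.84 and 4.39 FPKM at 7 h, 2.53 and 2.60 FPKM at 25 h). LAX1 fell in 35S-GDU5 from 25.9 to 20.8 FPKM. LAX2 shares its stretch with 64 other entries and was never called.

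**Figure D5:**
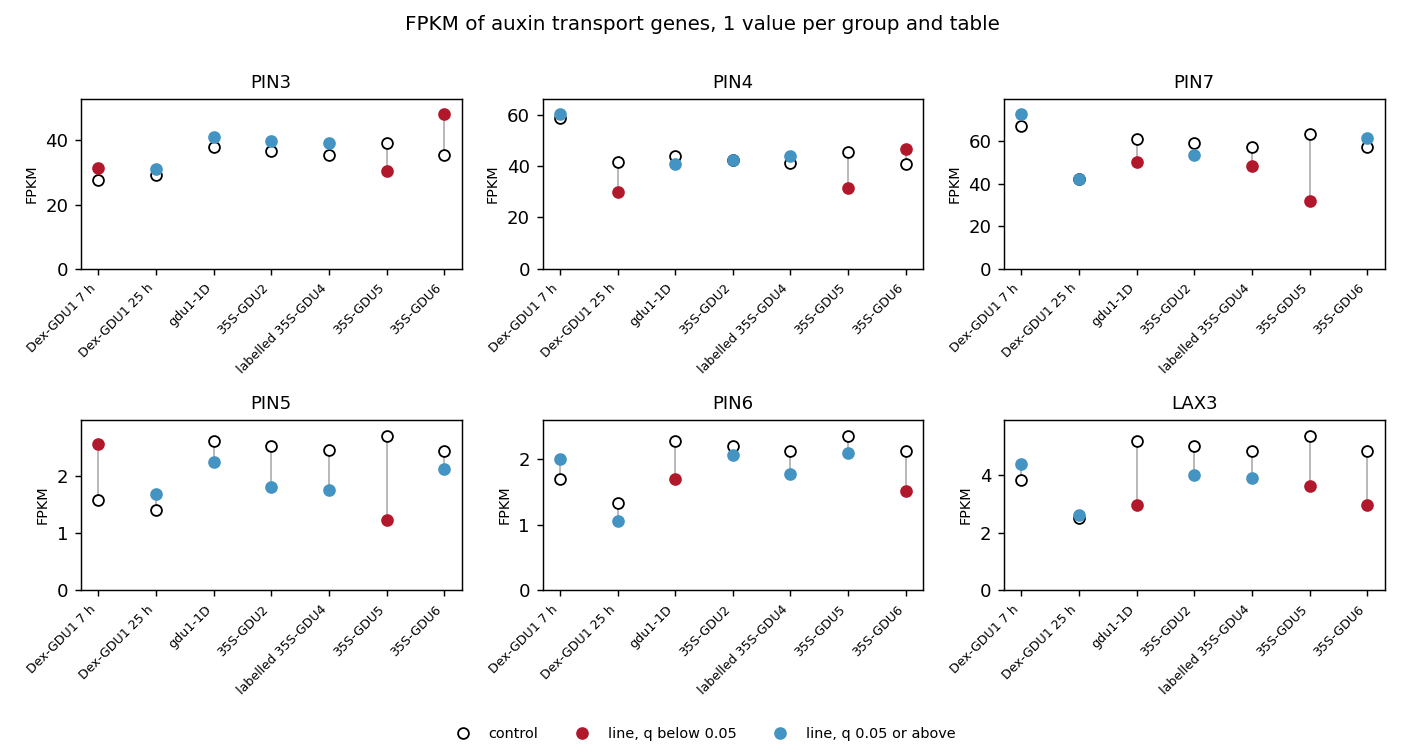
FPKM (vertical axis, from 0, a scale per panel) of 5 PIN genes (PIN3 to PIN7) and LAX3 in the 7 comparisons (horizontal axis); open circles are the control group, red circles a line called at q below 0.05 and blue circles a line not called, each 1 deposited group value with no error given. In 35S-GDU5 PIN7 (31.9 against 63.4 FPKM), PIN4, PIN3 and PIN5 (1.23 against 2.70 FPKM) stand below Col.

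Whether the change in Dex-GDU1 differed between the times was tested as the difference of the log2 changes at 25 h and 7 h over all 17113 genes tested at both, with Benjamini-Hochberg adjustment. Of the 39 family genes 6 passed at an adjusted p below 0.05 (17.2% of all genes passed, 6.88% with a more negative and 10.4% with a more positive change at 25 h): PIN4, PIN6, ARF6, ARF11, ARF17 and IAA16, each with a more negative change at 25 h. That share, 15.4%, is near the one over all genes, and with FPKM of at least 1 or on log2(FPKM + 1), 1 or 2 family genes with a more positive change passed beside 6 with a more negative one. PIN4 had the smallest adjusted p (difference -0.50, SE at most 0.13, adjusted p 0.00232). For IAA14 the difference was 1.20 (SE at most 0.46 on the deposited p, adjusted p 0.0508). Its p at 25 h is the smallest listed, so on the deposited p that error is an upper bound. With errors taken from the test statistics the adjusted p of IAA14 was 0.9999, so the test is undecided. None of the 6 passed with the errors taken from the test statistics.

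Upstream of the Aux/IAA proteins, 4 of 6 receptor genes rose in Dex-GDU1 at 7 h (8.76% of all tested genes rose), with TIR1 at 38.8 and 44.6 FPKM, AFB2 at 24.8 and 29.3 FPKM, AFB3 at 21.9 and 26.6 FPKM and AFB4 at 5.01 and 6.59 FPKM in the authors' deposited tables. At 25 h 1 of the 6 rose (AFB5) and 1 fell (AFB1), where 24.5% of all genes rose and 21.6% fell. Of the 6 receptors, 1 rose in gdu1-1D (23.1% of all genes), 2 rose and 1 fell in 35S-GDU5 (28.5% and 26.5%), and 2 rose and 1 fell in 35S-GDU6 (24.9% and 23.9%). Of the 5 TOPLESS-family corepressor genes, TPR2 and TPR3 rose in gdu1-1D (23.1% of all genes rose) and in 35S-GDU5 (28.5%). TPR4 rose in Dex-GDU1 at 25 h (24.5%), and TPR1 rose and TPR3 fell in 35S-GDU6 (24.9% and 23.9%). No corepressor gene was called at 7 h. The libraries labelled 35S-GDU4 and those of 35S-GDU2 had no call among receptors or corepressors. Whether counts this small differ from the shares over all genes was not tested.

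GH3 genes, whose enzymes conjugate auxin to amino acids and which are classical auxin-induced genes, held the largest differences of the pathway. GH3.5 rose in all 7 comparisons: Dex-GDU1 had 2.77 FPKM against 1.79 at 7 h and 2.19 against 0.853 at 25 h, and 35S-GDU5 had 12.3 FPKM against 0.974 in Col. In 35S-GDU5 4 of the 6 tested GH3 genes rose and 1 fell (28.5% and 26.5% of all genes), with a median log2 difference of 3.83 over the 6, against 0.01 over all tested genes. GH3.3 went there from 0.518 to 8.33 FPKM, GH3.17 from 0.392 to 6.68 FPKM and GH3.2 from 0.0662 to 5.00 FPKM, all below 1 FPKM in Col. GH3.9 fell from 10.2 to 5.67 FPKM, and the highest level of the list in 35S-GDU5, 28.5 FPKM, was of another GH3 gene. Of 5 tested, 3 rose in Dex-GDU1 at 7 h (8.76% of all genes), in gdu1-1D (23.1%, where GH3.9 fell, from 9.86 to 5.35 FPKM) and in 35S-GDU6 (24.9%). At 25 h 2 rose and 1 fell of 4 tested (24.5% and 21.6% of all genes). In 35S-GDU2 2 rose of 4 (14.5%), and in the libraries labelled 35S-GDU4 1 rose of 3 (9.65%). DAO1, an auxin oxidase, rose in Dex-GDU1 at 25 h (4.51 to 5.88 FPKM), 35S-GDU5 (3.1 to 5.72 FPKM) and 35S-GDU6 (2.80 to 4.43 FPKM).

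SAUR genes, small and often auxin-induced genes of cell expansion, were called in both directions in every comparison. In Dex-GDU1 2 rose and 6 fell of 48 tested at 7 h (of all genes, 8.76% rose and 7.19% fell), and 8 rose and 19 fell of 52 at 25 h (24.5% and 21.6%). In gdu1-1D 7 rose and 10 fell of 53 (23.1% and 21.4% of all genes), in 35S-GDU2 4 and 10 of 50 (14.5% and 10.2%), and in the libraries labelled 35S-GDU4 2 and 14 of 47 (9.65% and 5.71%). In 35S-GDU5 10 rose and 23 fell of 54 (28.5% and 26.5% of all genes), with a median log2 difference of -0.55, and in 35S-GDU6 10 rose and 12 fell of 49 (24.9% and 23.9%), with a median of -0.05. SAUR50 fell in all 7 comparisons, in 35S-GDU5 from 55.6 to 23.8 FPKM, and SAUR16 fell there from 137 to 45.1 FPKM. SAUR48 rose in 6 of the 7, with 2.28 FPKM in Dex-GDU1 against 0.439 at 7 h and 5.27 FPKM in 35S-GDU5 against 0.524. Many SAUR genes are near-identical neighbours between which reads can be split, so single values are uncertain.

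Of the auxin synthesis genes, 4 or 5 of 14 were tested. TAR2, an aminotransferase of the indole-3-pyruvate route, fell in 5 comparisons, for example from 14.1 to 6.69 FPKM in 35S-GDU5 and from 13.6 to 7.29 FPKM in gdu1-1D. YUC8, a flavin monooxygenase of the same route, rose in 35S-GDU6 from 0.102 to 1.18 FPKM. Among 11 tested transport genes outside the PIN and LAX families, 3 rose at 7 h (8.76% of all genes): AUX1, the founding influx carrier, from 35.8 to 44.7 FPKM, ABCB19 from 18.5 to 25.0 FPKM and ABCB1 from 18.5 to 22.5 FPKM. At 25 h 4 rose and 3 fell (24.5% and 21.6% of all genes), and in gdu1-1D 4 and 2 (23.1% and 21.4%). In 35S-GDU2 1 rose and 1 fell (14.5% and 10.2%), as in the libraries labelled 35S-GDU4 (9.65% and 5.71%). In 35S-GDU5 5 rose and 1 fell (28.5% and 26.5%), and in 35S-GDU6 3 and 1 (24.9% and 23.9%). ABCB21 fell at 25 h from 5.71 to 1.63 FPKM, and PILS6 rose in 35S-GDU6 from 4.87 to 8.82 FPKM. The kinase gene PID, whose product acts on PIN proteins, fell in the libraries labelled 35S-GDU4 and in 35S-GDU6 and rose in 35S-GDU5 from 1.57 to 3.00 FPKM.

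Some family genes carry other names in the tables, so the name rule did not take them. Of those, IAA27 fell in all 5 constitutive comparisons, from 19.1 to 10.7 FPKM in gdu1-1D and from 17.9 to 9.06 FPKM in 35S-GDU6, and rose at 7 h from 16.6 to 19.2 FPKM. IAA1, a close relative of IAA2, rose in 35S-GDU6 from 35.0 to 64.3 FPKM and fell in 35S-GDU5 from 38.8 to 33.4 FPKM. ARF2, a repressor-type factor, rose at 7 h (67.0 to 76.1 FPKM), at 25 h (59.2 to 70.7 FPKM) and in 35S-GDU6 (63.8 to 80.2 FPKM). AXR3/IAA17 stood at 65.0 FPKM in Col and 24.0 FPKM in 35S-GDU5, just short of a call (q 0.0512). BDL/IAA12 and MP/ARF5 were tested and not called either, and EIR1/PIN2, a carrier known from roots, was not tested.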

How the data were processed

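Leaf RNA of 29 libraries was sequenced in 2 runs each as paired reads of 100 bases. Per the submitters' processing notes, TopHat2, Cufflinks, Cuffdiff and TAIR10 were used; versions, strand setting and reads per library are not given in the sources used here, so depth is unknown. Per the file headers, the authors' FPKM values are 1 per gene and group, normalized per comparison, the p-value is Cuffdiff's uncorrected p and the q-value its adjustment over the tested genes, and the deposited score is Cuffdiff's test statistic. Starts in the deposited tables count from 0 and are given here from 1. The single libraries of 35S-GDU1 and of 35S-GDU3 enter no comparison.

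With Python 3.11.15, pandas 2.3.3, NumPy 2.4.6 and SciPy 1.17.1, log2 changes were computed as line over control FPKM. Standard errors were computed as the absolute log2 change over the normal quantile of the deposited p. At 5e-05 they are an upper bound on that p only, and errors from the test statistics can be larger. The time difference is a two-sided normal test with Benjamini-Hochberg adjustment, tested on simulated data. The deposited p-values compare groups of libraries, each library a pool of plants labelled as a biological replicate. How the spread between libraries entered those p-values is not known here. Entries were given loci from the RefSeq annotation of TAIR10.1 by name and position (31783 of 32650 matched), and promoters came from the same assembly. Strands of entries were inferred from their order in the tables.

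Members and lists were chosen with earlier results of these data known, and the SAUR list was taken from RefSeq names after the tables had been seen. Values are given for members called in at least 3 comparisons, or in 1 with an absolute log2 change of at least 0.58 and at least 1 FPKM, and for at most 4 called genes of each other list; others are given by count. Alternatives were other thresholds, filters, pseudocounts and centring, joined entries left out and, added after seeing the data, p from the test statistic and entries on shared stretches left out. The values of 1 family gene are not reported here, although counts and medians include it. A search of protein sequences for the Aux/IAA degron was not run.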

Additional observations from a re-analysis of the deposited data

Results flagged for a closer look

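For 6 genes the change in Dex-GDU1 over 4c-S7 differed between the collections at 25 h and 7 h after the spray, by a test of the difference itself adjusted over 17113 genes, of which 17.2% passed. The difference, as log2 change at 25 h minus that at 7 h, was -0.50 for PIN4 (adjusted p 0.00232), -0.33 for ARF6 (0.0053), -0.24 for IAA16 (0.0202), -0.48 for ARF11 (0.0209), -0.35 for ARF17 (0.0286) and -0.58 for PIN6 (0.0404). PIN4 and ARF6 were called at 25 h alone, ARF11 and IAA16 at 7 h alone, and ARF17 and PIN6 at neither time. The collections also differ in the time since dawn, and with errors from the test statistics the adjusted p of PIN4 was 0.322 and no family gene passed.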

How the results depend on the processing

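The counts of called family genes were 10, 6, 14, 6, 5, 21 and 19 in this order: Dex-GDU1 at 7 h and at 25 h, gdu1-1D, 35S-GDU2, the libraries labelled 35S-GDU4, then 35S-GDU5, then 35S-GDU6. Under a minimum change of 0.58 on log2(FPKM + 1) they were 1, 2, 5, 3, 0, 7 and 6, and with that minimum after centring on the median gene 2, 3, 5, 3, 0, 8 and 9. With p recomputed from the test statistic they were 0, 2, 4, 0, 1, 10 and 12, where the share of all genes called also fell, to 1.25%, 11.6%, 15%, 7.01%, 4.74%, 31.6% and 22.2%. At q below 0.01 the count at 7 h was 3, and without entries that share a stretch that of the libraries labelled 35S-GDU4 was 3. Of the 6 genes whose change differed between the times, 0 passed with the standard error from the test statistic, 0 with genes at the smallest p left out and 2 at an adjusted p below 0.01; with FPKM of at least 1, 7 passed (1 more positive, 6 more negative), and on log2(FPKM + 1) 8 (2 and 6). No call changed sign after centring. The other alternatives kept each count within 1.5 times.

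Leaving out a library was not run: the tables give 1 value per group. No paired analysis was possible because of the same pooling. Depth is unknown, and no error between libraries is given for any level.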
